A study of Mus musculus with 2 samples.

Results

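Integrins are the receptors by which cells hold on to extracellular matrix and to one another, and laminins are the cross-shaped glycoproteins of basement membrane that several integrins bind. Here they were taken as every gene symbol of the deposited count table that names an integrin alpha or beta chain or a laminin alpha, beta or gamma chain, with 20 counts or more over both libraries together. Of 38 such symbols 37 passed, 26 integrins and 11 laminins, among 35602 symbols in all and 18687 genes that reached this minimum. The integrin-like gene Itgbl1, which makes no integrin chain, was left out by the rule. The chain nearest above the minimum was Itgad with 28 and 25 counts, and the only symbol below it was Itgb2l, with 0 counts in both libraries, which allows up to 0.0294 and 0.0477 CPM (counts scaled to a common library size).

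The material was breast tumour tissue of mice. The groups were a PD-1 inhibitor given by intraperitoneal injection (1 library, 105728292 counts) and the same injection with acupuncture (1 library, 60752043 counts), so both groups carry the inhibitor and neither is untreated. The sources used here do not give strain, age, tumour line, dose, schedule or the number of animals behind a library. The design asked what acupuncture adds to PD-1 blockade in the tumour. With 1 library per group there is no replicate check, and no test between the treatments was possible. Every interval below is an exact 95% interval for counting error only, Clopper-Pearson for single genes and conditional for pairs of chains. Epithelial markers, which define the labelled tissue, were all measured (18 of 18), with Krt8 at 1564 and 1060 CPM.

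An integrin is a pair of 1 alpha and 1 beta chain, and the pairing sets what it binds. Alpha 3, 6 and 7 chains bind laminin, alpha 1, 2, 10 and 11 bind collagen, alpha 5, 8, v and IIb bind proteins such as fibronectin through an arginine-glycine-aspartate (RGD) motif, and the beta 2 and beta 7 chains belong to leukocytes. A laminin is a trimer of an alpha, a beta and a gamma chain. Laminin-332, which holds the chains Lama3 and Lamb3, anchors epithelia to their basement membrane through the alpha 6 beta 4 integrin of hemidesmosomes.

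Most integrin and laminin genes differed little between the libraries. Each ratio divides the acupuncture value by that of the inhibitor alone, on library sizes scaled with TMM, a method that sets most genes to no difference, and a gene is called higher or lower when its ratio is at least 2-fold and the interval excludes 1. Of the 37 genes 3 were higher, 3 lower and 31 between, where 9.21% of all genes tested were higher, 4.90% lower and 14.1% either. The share of members called, 8.11% in each direction, is near that background. The same shares, 9.21% higher and 4.90% lower, are the background for each count from the pathway and marker lists below. Itga11, Itgb7 and Itga4 were higher, and Lamc3, Itgb3 and Lamb3 were lower. With the epithelial marker list set to a median of 0, the split of 3 higher to 3 lower became 5 to 1, and Itgav, Itga6, Itga7, Itga1, Itgb1, Lama3 and Lamc1 turned from under to over 1. This setting adds 0.33 to every log2 ratio, and the share of all genes called was not counted under it.

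**Figure D1:**
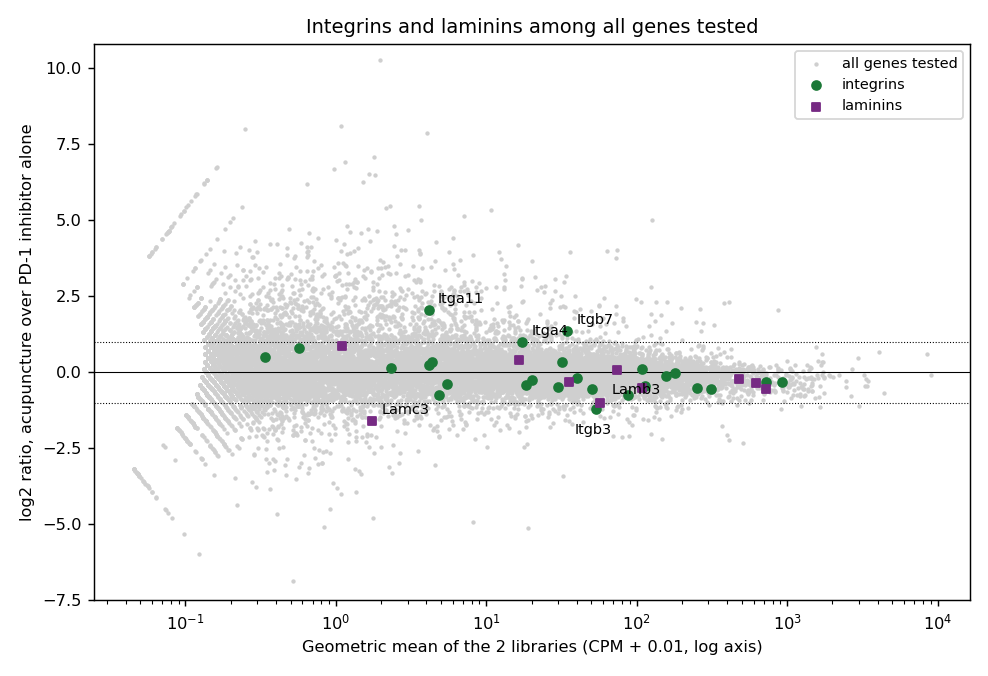
Log2 ratio (vertical) against the geometric mean level in CPM + 0.01 (horizontal, log axis) for all 18687 genes tested (grey), 26 integrins (green circles) and 10 laminins (purple squares), with dotted lines at a 2-fold difference. The 6 labelled genes lie beyond or at those lines and the other 30 inside them.

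As a set, the genes lay below the middle of the transcriptome. The median log2 ratio was -0.23 for integrins and -0.36 for laminins, beside 0.0003 for all genes tested. With the epithelial list at 0 the integrin median was 0.10, but that setting adds 0.33 to every log2 ratio, all genes tested included. Of the integrins 16 of 26 and of the laminins 8 of 11 had a ratio under 1. Their summed levels were 3571 and 2865 CPM for integrins and 3016 and 2172 CPM for laminins, the inhibitor-only library being given first and the acupuncture library second, as throughout. The epithelial marker list had a median of -0.33, with 1 of 18 genes higher and 2 lower, and its summed level was 4438 and 3098 CPM. Bulk tissue cannot tell fewer cells of a type from less RNA per cell.

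**Figure D2:**
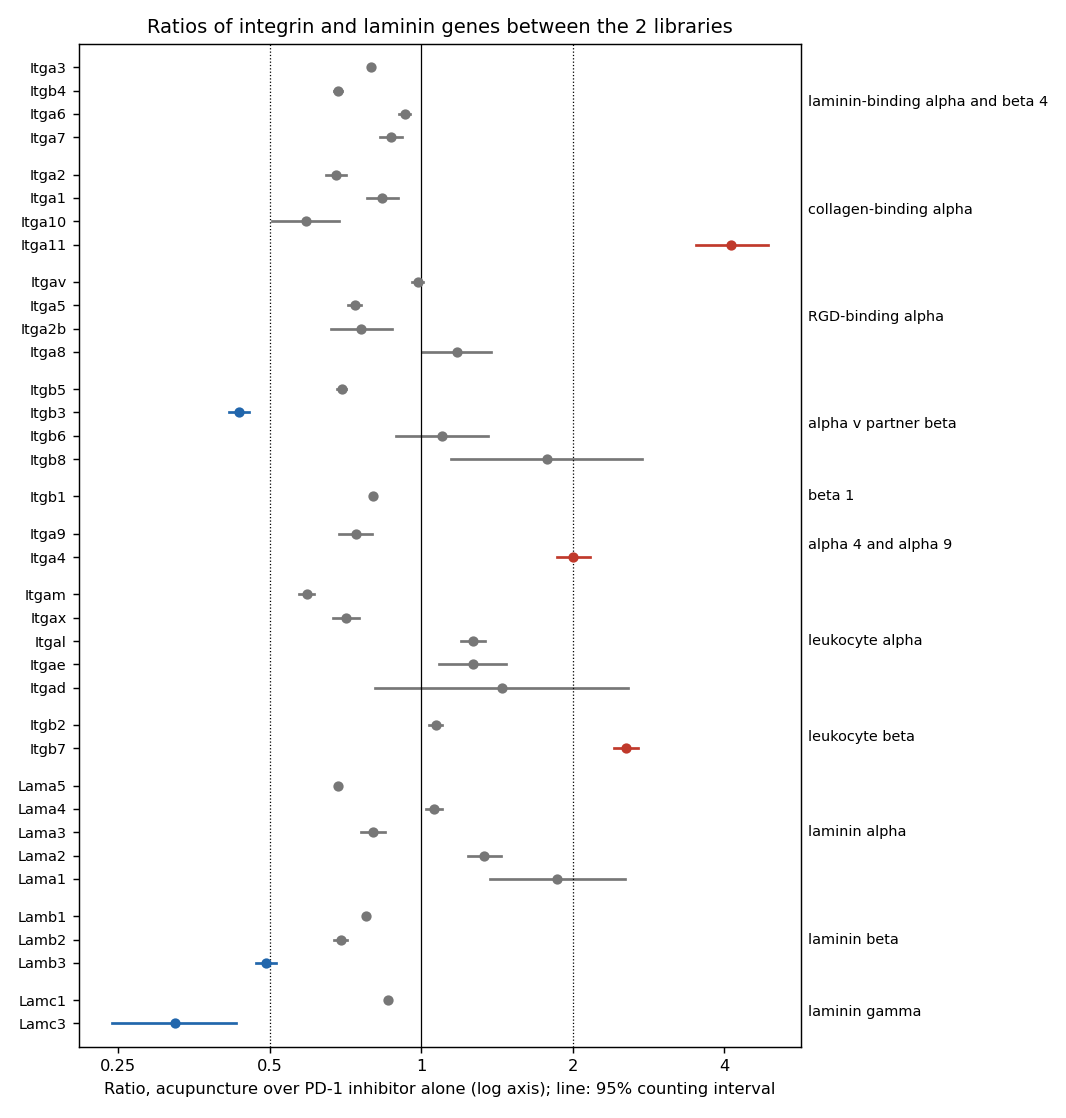
Ratio of the acupuncture library over the inhibitor-only library (log axis) for 36 of the genes by role, with its 95% counting interval as a line. Red points are higher and blue points lower by at least 2-fold, and the laminin-binding, beta 1 and laminin beta genes all sit left of 1 at this scaling.

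Laminin alpha chains decide which receptors a laminin meets. Lama5, the alpha chain of laminin-511 in epithelial and vessel basement membrane, had 89545 and 37703 counts, or 877 and 599 CPM, and was 1.46-fold lower (1.45 to 1.48). Lama3, the alpha chain of laminin-332, was at 39.7 and 31.9 CPM, 1.25-fold lower (1.18 to 1.32). Lama4, typical of vessel walls and fat, was at 72.1 and 76.5 CPM, a ratio of 1.06 (1.02 to 1.10). The other alpha chains were higher with acupuncture but short of 2-fold. Lama2, the alpha chain of muscle and peripheral nerve laminin, was at 14.3 and 19.1 CPM, a ratio of 1.33 (1.24 to 1.44). Lama1, the alpha chain of embryonic laminin, had 82 and 94 counts, a ratio of 1.86 (1.37 to 2.53). Skeletal muscle markers, measured at 14 of 15 with 14 higher, summed to 261 and 2568 CPM, and Schwann cell and nerve markers, 3 of 10 higher, summed to 126 and 161 CPM. Their part in the Lama2 and Lama1 ratios was not tested.

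Levels of different chains were set side by side as counts per kilobase of coding length. Lama5 led the alpha chains in both libraries, with 80.7% and 73.4% of the alpha chain level, followed by Lama4 with 13.6% and 19.2%, Lama3 with 4.08% and 4.36%, Lama2 with 1.57% and 2.79%, and Lama1 with 0.0891% and 0.221%. The order was therefore the same in both, with a smaller lead of Lama5 in the acupuncture library. The count ratio of Lama5 to Lama4, which no choice of library scaling affects, was 1.55-fold lower there (1.49 to 1.61).

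All 3 laminin beta chains had ratios under 1. Lamb3, the beta chain of laminin-332, had 8357 and 2529 counts, or 81.9 and 40.2 CPM, and was 2.04-fold lower (1.95 to 2.13). This call ended under 3 of the 5 other scalings, at log2 ratios of -0.92 by total counts, -0.92 without the 10 most abundant genes and -0.70 with the epithelial list at 0. Lamb1, the beta chain of most laminins, was at 703 and 546 CPM, 1.29-fold lower (1.27 to 1.30), and Lamb2, found at synapses, kidney filter and vessel walls, was at 130.4 and 90.1 CPM, 1.45-fold lower (1.40 to 1.49). Lamb1 held 72.9% and 77.9% of the beta chain level per coding length, and Lamb3 held 13.3% and 9.004%. Relative to Lamb1, Lamb3 was 1.58-fold lower (1.51 to 1.66).

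Lamc3, a gamma chain of restricted expression, had the lowest ratio of the chains described here. It had 310 and 62 counts, or 3.04 and 0.985 CPM, and was 3.08-fold lower (2.34 to 4.12). Lamc1, the gamma chain of most laminins, was at 515 and 442 CPM, 1.17-fold lower (1.15 to 1.18). Relative to Lamc1, Lamc3 was 2.64-fold lower (2.01 to 3.53).

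**Figure D3:**
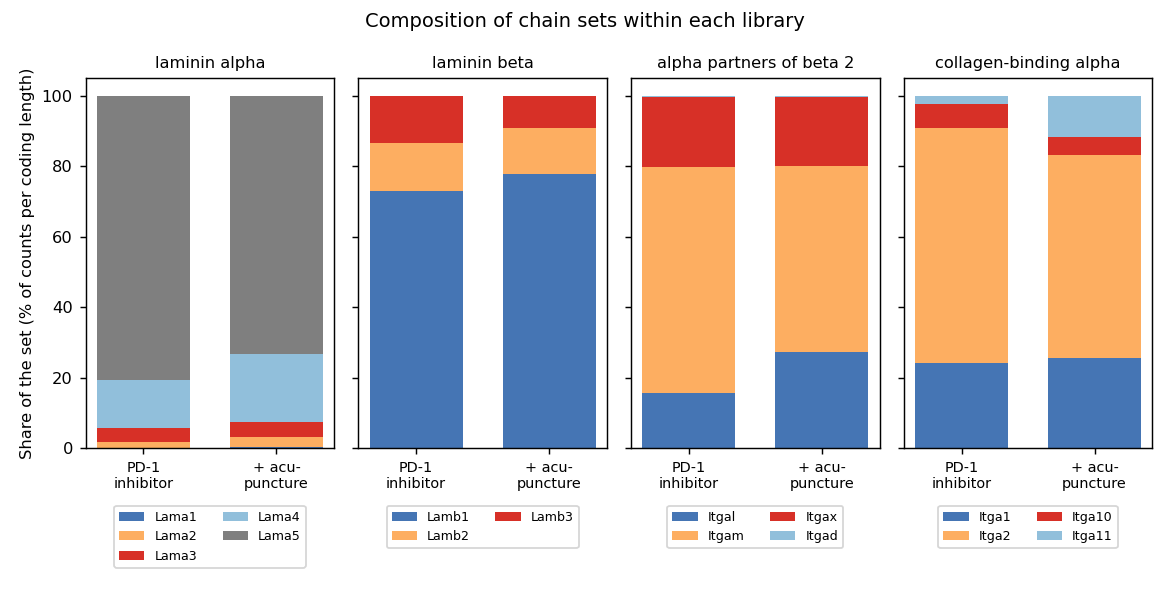
Share of each chain within its set in percent of counts per coding length (bars from 0 to 100), for the inhibitor-only library (left bar) and the acupuncture library (right bar). Lama5 passes from 80.7% to 73.4% of the laminin alpha chains, and Itgam from 64.4% to 52.8% of the alpha partners of beta 2.

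The laminin-binding integrin chains Itga3, Itga6, Itga7 and Itgb4 had ratios under 1, none by 2-fold, although Itga6 and Itga7 turned above 1 with the epithelial list at 0. Itga3, the most abundant alpha chain and the partner of beta 1 on epithelia, was at 818 and 650 CPM, 1.26-fold lower (1.24 to 1.27). Itgb4, whose long tail joins hemidesmosomes to keratin, was at 376 and 257 CPM, 1.46-fold lower (1.43 to 1.49), while its partner Itga6 was at 163 and 151 CPM, 1.08-fold lower (1.05 to 1.11). The count ratio of Itgb4 to Itga6 was 1.35-fold lower with acupuncture (1.31 to 1.40). Itga7, the laminin receptor of muscle, was at 42.6 and 37.2 CPM, 1.15-fold lower (1.09 to 1.21). The muscle markers were 9.83 times as high in sum in the acupuncture library, and their part in the Itga7 ratio was not tested. The hemidesmosome list held 6 other genes, the keratins Krt5 and Krt14 among them. All 6 had ratios under 1 at this scaling, with a median log2 ratio of -0.49. Only 1 was lower by 2-fold, beside 4.90% of all genes tested. That gene was the basal keratin Krt5, 6.41-fold lower (3.35 to 13.8) at only 104 and 10 counts. The linker plectin, Plec, was 1.23-fold lower and Dst, the gene of the hemidesmosome linker BP230, 1.16-fold lower, and the tetraspanin Cd151, which binds laminin-binding integrins, was 1.55-fold lower (1.52 to 1.59). Myoepithelial and basal markers, Krt5 among them, had 1 of 8 lower, none higher and a summed level of 323 and 239.9 CPM.

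Itgb1, the beta chain that pairs with most alpha chains, was the most abundant member. It had 104982 and 51813 counts, or 1028 and 823 CPM, and was 1.25-fold lower (1.24 to 1.26). Its share of all beta chains per coding length was 60.4% and 61.0%, so it kept its place among them. Itgb5 followed with 17.3% and 15.1%.

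Collagen-binding alpha chains went apart. Itga11, a receptor for fibrillar collagen found on fibroblasts, had 207 and 527 counts, or 2.03 and 8.38 CPM, and was 4.13-fold higher (3.51 to 4.88), the largest ratio of any member. Itga2, of epithelia and platelets, was at 61.1 and 41.4 CPM, 1.48-fold lower (1.41 to 1.55), Itga10, a cartilage collagen receptor, at 6.26 and 3.69 CPM, 1.70-fold lower (1.46 to 1.98), and Itga1, of smooth muscle and T cells in tissue, at 21.9 and 18.4 CPM, 1.19-fold lower (1.11 to 1.28). Within this set Itga11 held 2.20% of the level per coding length in the inhibitor-only library and 11.6% with acupuncture, while Itga2 went from 66.9% to 57.7%. Fibroblast markers had 2 of 10 genes higher and none lower, their median log2 ratio being 0.71 and a summed level of 7193 and 9893 CPM. Pericyte and smooth muscle markers had 3 of 10 higher, none lower and a summed level of 287 and 379 CPM. The higher fibroblast markers were Fap, a protease of activated fibroblasts, at 2.34-fold and the matrix protein Dpt at 2.12-fold. Their part in the Itga11 ratio was not tested.

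None of the 4 RGD-binding alpha chains was called. Itgav, which pairs with several beta chains, was at 182 and 179 CPM, a ratio of 0.982 (0.960 to 1.006), and its sign turned under total-count scaling, to a log2 ratio of 0.08. Besides Itgav, only Itgb6 and Itgad had intervals that held 1. The fibronectin receptor chain Itga5 was at 132 and 97.3 CPM, 1.36-fold lower (1.32 to 1.40). Itga8, of smooth muscle and mesenchyme, was at 3.80 and 4.47 CPM, a ratio of 1.18 (1.004 to 1.37).

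Partners of alpha v differed more than alpha v itself. Itgb3, the beta chain of the vitronectin receptor on sprouting vessels and macrophages and of the fibrinogen receptor on platelets, had 8280 and 2218 counts, or 81.1 and 35.3 CPM, and was 2.30-fold lower (2.20 to 2.41), a call that ended with the epithelial list at 0, at a log2 ratio of -0.87. Itgb5 was at 301 and 209 CPM, 1.44-fold lower (1.41 to 1.47). The epithelial chain Itgb6, an activator of latent TGF-beta, was at 2.21 and 2.43 CPM with an interval that held 1, and Itgb8, which does the same on other cells, had 43 and 47 counts, a ratio of 1.77 (1.15 to 2.75). Relative to Itgav, Itgb3 was 2.26-fold lower (2.14 to 2.38), and relative to Itgb5 it was 1.60-fold lower (1.52 to 1.68).

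Itgb3 pairs with Itga2b on platelets, and that chain was at 6.23 and 4.74 CPM, 1.32-fold lower (1.14 to 1.51). Platelet and megakaryocyte markers, measured at 6 of 10, had 3 lower, none higher and a summed level of 58.1 and 16.8 CPM, most of it Pf4, which macrophages also make. Gp6, at 0 in the inhibitor-only library, was among the platelet markers below the count minimum. Endothelial markers had 1 of 12 lower and none higher, with a summed level of 403 and 282 CPM, and macrophage markers had 1 of 10 lower and 1 higher, with 1661 and 1429 CPM. The higher macrophage marker was the receptor Marco, with 0 and 164 counts. The part of these cells in the Itgb3 ratio was not tested.

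**Figure D4:**
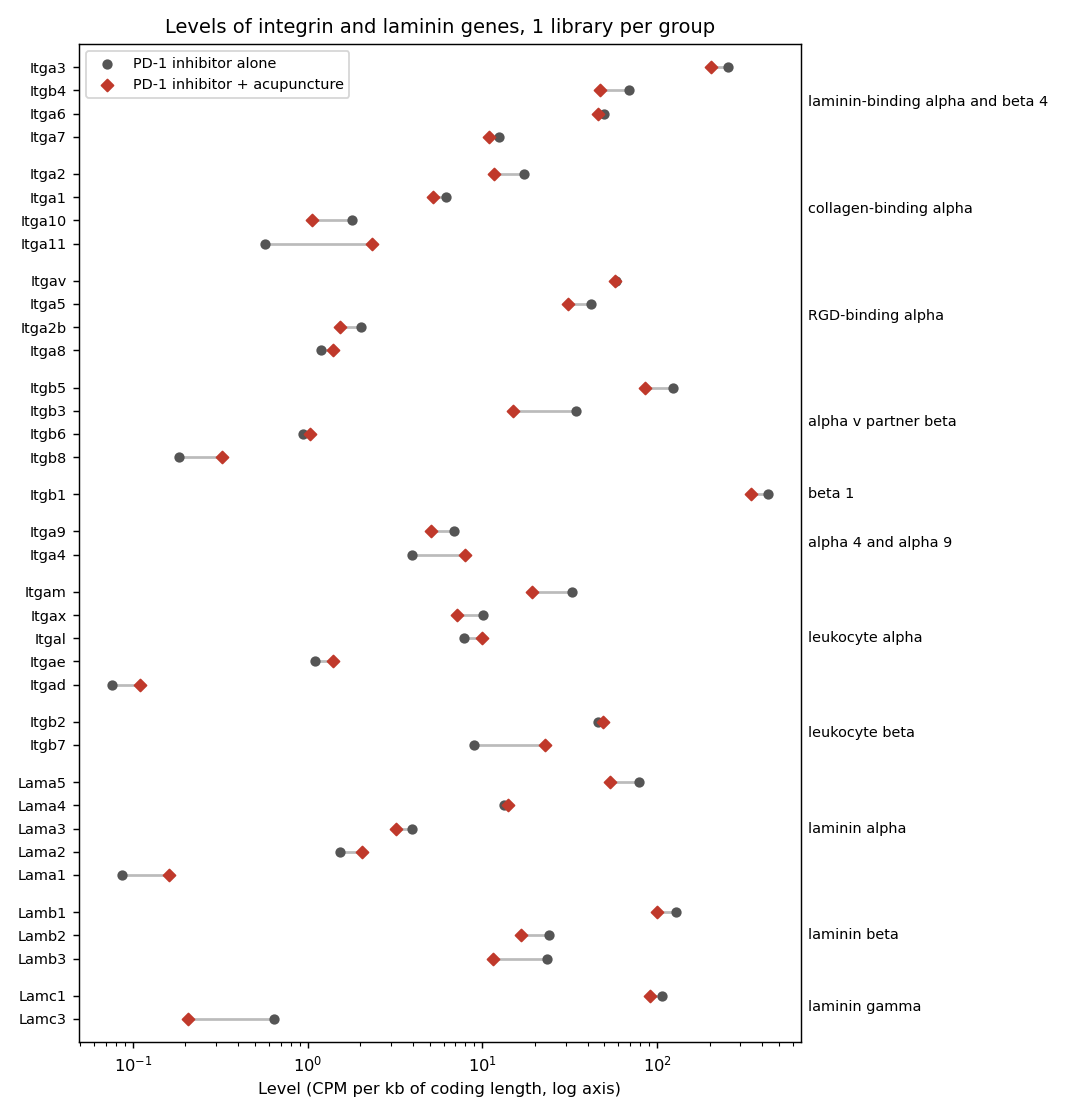
Level of 36 of the genes in CPM per kilobase of coding length (log axis) in the inhibitor-only library (grey circles) and the acupuncture library (red diamonds), by role. Itgb1 is highest in both libraries, and Itgad and Lama1 are among the lowest.

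Leukocyte integrins differed in direction. Itgb7, the beta chain that guides lymphocytes to gut and other mucosa, had 2203 and 3461 counts, or 21.6 and 55.0 CPM, and was 2.55-fold higher (2.42 to 2.69). Itga4, which pairs with beta 1 or beta 7 to bind VCAM-1 and MAdCAM-1, had 1249 and 1542 counts, or 12.2 and 24.5 CPM, and stood at the limit at 2.003-fold higher (1.86 to 2.16). With a minimum of 1 count in all for entry to the scaling, and with the deeper library thinned, it missed the limit at log2 ratios of 0.98 and 0.98. Its relative Itga9, a receptor of tenascin and osteopontin, was at 21.3 and 15.8 CPM, 1.35-fold lower (1.25 to 1.46), so that Itga4 against Itga9 was 2.71-fold higher (2.43 to 3.01).

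Itgae, the chain that pairs with beta 7 on tissue-resident T cells and some dendritic cells and binds E-cadherin, was at 3.86 and 4.88 CPM, a ratio of 1.26 (1.09 to 1.47). The beta 2 chain Itgb2, shared by nearly all leukocytes, was at 106 and 113 CPM, a ratio of 1.07 (1.04 to 1.10), and Itgb7 against Itgb2 was 2.39-fold higher (2.25 to 2.54). T cell markers, measured at 12 of 15 with 12 higher, summed to 30.5 and 167 CPM, and all 10 B cell markers were higher, with 4.19 and 136 CPM in sum. Markers of lymph node stroma, 7 of 10 higher, had a median log2 ratio of 3.98 and summed to 50.7 and 258 CPM. Lyve1, which was not called, made up 26.7 and 31.5 CPM of these sums, while Chst4 had 0 and 120 counts. The B cell and lymph node stroma lists overlap in a gene that is counted as higher in both. The part of T cells, B cells and lymph node stroma in the Itgb7 and Itga4 ratios was not tested.

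The alpha partners of beta 2 shifted against each other. Itgal, the LFA-1 chain of lymphocytes, was at 28.2 and 35.8 CPM, a ratio of 1.27 (1.20 to 1.34). Itgam, the Mac-1 chain of neutrophils and macrophages, had 11642 and 4248 counts, or 114 and 67.5 CPM, and was 1.69-fold lower (1.63 to 1.75). Itgax, the chain known as CD11c on dendritic cells and macrophages, was at 35.5 and 25.2 CPM, 1.41-fold lower (1.33 to 1.497), and the macrophage chain Itgad, at 53 counts in all, had an interval that held 1. Per coding length Itgam made up 64.4% and 52.8% of these partners, Itgal 15.5% and 27.2%, Itgax 20.02% and 19.7%, and Itgad 0.150% and 0.302%. Itgal thus passed Itgax in the acupuncture library, and the count ratio of Itgam to Itgal was 2.14-fold lower there (2.01 to 2.29). Natural killer cell markers, measured at 6 of 7, had 3 higher and a summed level of 11.2 and 22.7 CPM, with Klra8 at 0 in both, and conventional dendritic cell markers had 2 of 8 higher, 6 of 8 ratios above 1 and a median log2 ratio of 0.20. The summed level of the dendritic list was 434 and 303 CPM, most of it Fscn1, named after its values were seen, at 400.2 and 254 CPM. Neutrophil markers had 7 of 10 lower and none higher, at 219 and 26.2 CPM in sum, and their part in the Itgam ratio was not tested.

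Ligands outside the laminins varied by protein. Of 10 counter-receptors of leukocyte integrins 3 were higher and none lower, beside 9.21% and 4.90% of all genes tested. Their median log2 ratio was 0.35. Madcam1, the vessel ligand of alpha 4 beta 7, had 26 and 75 counts, 4.68-fold higher (2.96 to 7.62). It is also counted among the higher markers of lymph node stroma. Jam3, a junction ligand of Mac-1, was 2.26-fold higher (1.98 to 2.59), and the LFA-1 ligand Icam1, named here after its value was seen, was 2.18-fold higher (2.07 to 2.31). The abundant Vcam1 stood at 147 and 140.1 CPM, a ratio of 0.952 (0.927 to 0.978), and Cdh1, the E-cadherin bound by alpha E beta 7, was 1.48-fold lower (1.44 to 1.52).

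Matrix ligands of the RGD-binding and alpha 9 integrins had 1 of 19 genes higher and 1 lower, beside 9.21% and 4.90% of genes tested. In this list 14 ratios were under 1 and the median log2 ratio was -0.29. Osteopontin, Spp1, was at 4402 and 2054 CPM, 2.14-fold lower (2.13 to 2.16), and fibronectin, Fn1, at 5575 and 3429 CPM, 1.63-fold lower (1.62 to 1.63). Vitronectin, Vtn, ran the other way at 122 and 605 counts, 8.05-fold higher (6.61 to 9.86). Of 9 measured genes on the list for TGF-beta activated by alpha v integrins none was called, yet all had ratios under 1 at this scaling, with Ltbp3, which binds latent TGF-beta, 1.91-fold lower (1.88 to 1.93) and its relative Ltbp2, a microfibril protein that does not bind latent TGF-beta, 1.83-fold lower (1.79 to 1.86).

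Basement membrane partners of laminin had 1 of 19 genes higher and 1 lower, where all genes tested had 9.21% higher and 4.90% lower. The median log2 ratio of these partners was -0.05. The collagen IV chain Col4a1, which forms the second network of basement membrane, was 1.20-fold lower (1.19 to 1.22), and Sparc, a collagen-binding matrix protein, had a ratio of 1.13 (1.12 to 1.14). Smoc2, a calcium-binding matrix protein, was 5.74-fold higher (5.02 to 6.60) and Papln, a proteoglycan-like matrix protein, 3.15-fold lower (2.83 to 3.50). Among 16 other laminin receptors 3 were higher and none lower, beside the muscle markers given with Lama2. Among the higher ones, Sgca, a sarcoglycan of the muscle membrane, was 4.22-fold higher (3.07 to 5.87) and Sgcd, another one, named after its value was seen, 3.50-fold (3.07 to 3.99). The syndecan Sdc4, which joins integrins at focal adhesions, was 1.93-fold lower (1.90 to 1.96), and Rpsa, a ribosomal protein also described as a laminin receptor, 1.36-fold lower (1.35 to 1.36).

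Inside the cell, other genes switch integrins on and tie them to actin. Of 18 activators and inhibitors 2 were higher and none lower, and their median log2 ratio was 0.03. Of all genes tested 9.21% were higher and 4.90% lower. The 2 higher activators belong to lymphocytes or platelets, the exchange factor Rasgrp2 at 3.20-fold (2.85 to 3.58) and the T cell adaptor Skap1 at 4.50-fold (3.88 to 5.23). Talin, Tln1, which binds beta tails, was at 491 and 439 CPM, 1.12-fold lower (1.10 to 1.14), and filamin A, Flna, which holds beta tails inactive, 1.40-fold lower (1.38 to 1.41). None of 20 focal adhesion genes was called, at a median of -0.10, and the actin crosslinkers Actn4 and Actn1 had ratios of 1.012 and 0.853. Of 10 tetraspanins and lateral partners 1 was higher, the fatty acid and thrombospondin receptor Cd36 at 4.53-fold (4.36 to 4.71). The other 9 had ratios under 1, such as Bsg at 1.87-fold lower, and include Cd151, already counted with the hemidesmosome genes. Adipocyte markers, 9 of 10 higher, summed to 518 and 1769.8 CPM in the same libraries.

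**Figure D5:**
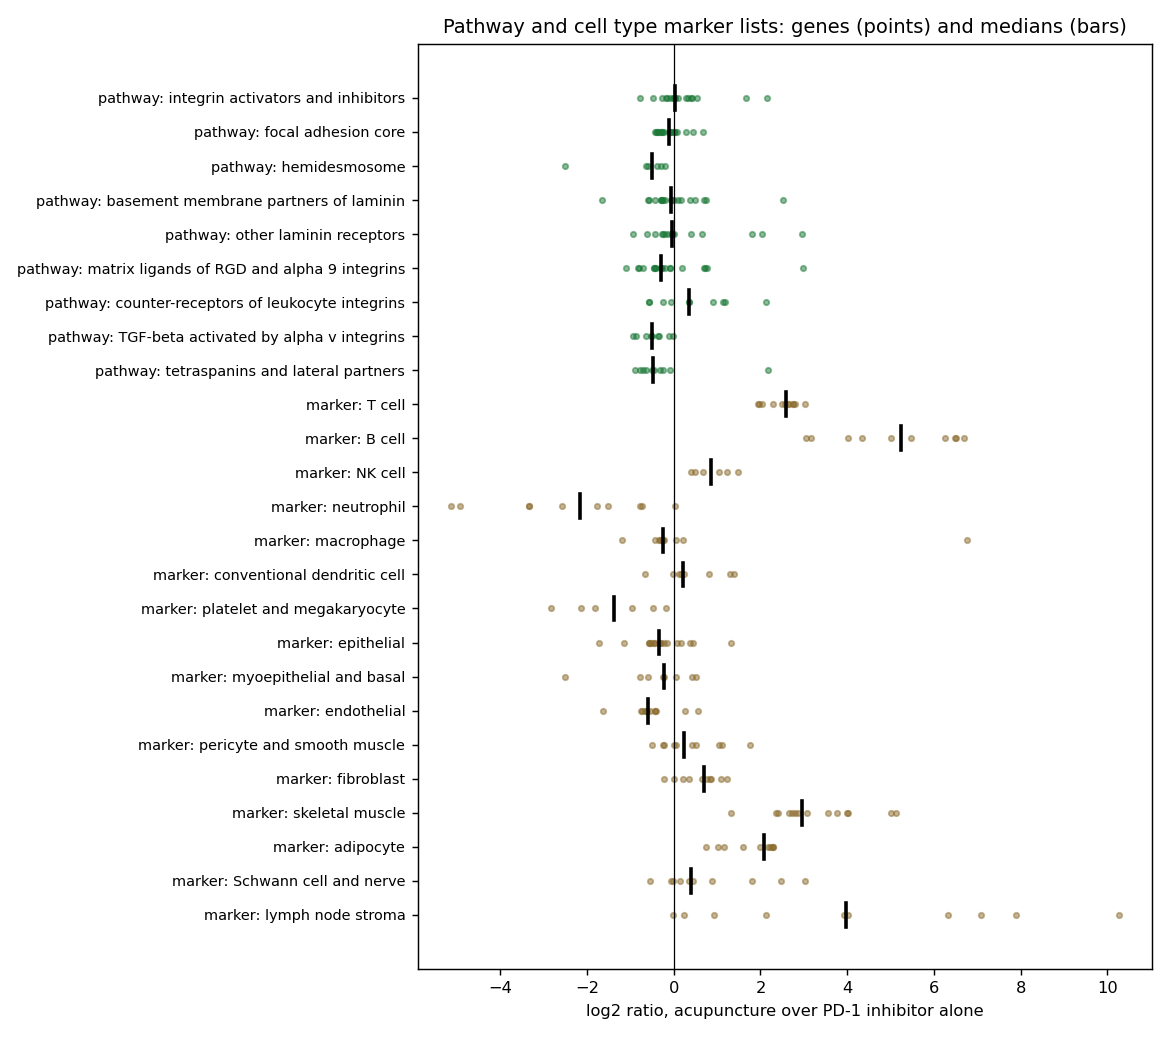
Log2 ratio of each measured gene (points) and the list median (black bar) for 9 pathway lists (green) and 16 cell type marker lists (brown). Pathway medians lie between -0.50 and 0.35, and marker medians between -2.17 for neutrophils and 5.23 for B cells.

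Other matrix and epithelial families gave a frame for these counts. Collagens had 4 of 41 genes higher and 5 lower, keratins had 2 of 22 higher and 6 lower, and matrix metalloproteinases had 1 of 20 higher and 7 lower, with median log2 ratios of -0.19, -0.44 and -0.58. The shares over all genes tested were 9.21% higher and 4.90% lower. The laminin median of -0.36 fell between those of collagens and keratins, and no test of these differences was possible with 1 library per group.

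Promoter sequences from RefSeq (build GRCm38.p6, whereas the submitters' processing notes name GRCm39 for the counts) were matched by symbol for 23 of the 37 genes and 4 of the 6 called ones. The 250 bases before the start site are shown 5′ to 3′ for those 4 because they are the called genes with a window in the table, with matches to 4 motifs in capitals. The windows are chr1:193301744-193301993 on the plus strand for Lamb3, chr9:62677605-62677854 plus for Itga11, chr2:79255176-79255425 plus for Itga4 and chr15:102231936-102232185 on the minus strand for Itgb7. Lamb3 had a second window for another start site, chr1:193301993-193302242 plus, which is not shown and held none of the 4 motifs.
Lamb3: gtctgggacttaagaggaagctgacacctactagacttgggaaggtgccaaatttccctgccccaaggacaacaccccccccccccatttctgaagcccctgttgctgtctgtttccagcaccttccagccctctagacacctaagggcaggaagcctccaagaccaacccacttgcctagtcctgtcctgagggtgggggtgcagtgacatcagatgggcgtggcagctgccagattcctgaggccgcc
Itga11: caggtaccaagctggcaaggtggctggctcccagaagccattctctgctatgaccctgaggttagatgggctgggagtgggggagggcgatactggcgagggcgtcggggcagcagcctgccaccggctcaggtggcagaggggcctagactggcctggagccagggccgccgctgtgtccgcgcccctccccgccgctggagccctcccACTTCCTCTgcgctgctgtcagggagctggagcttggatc
Itga4: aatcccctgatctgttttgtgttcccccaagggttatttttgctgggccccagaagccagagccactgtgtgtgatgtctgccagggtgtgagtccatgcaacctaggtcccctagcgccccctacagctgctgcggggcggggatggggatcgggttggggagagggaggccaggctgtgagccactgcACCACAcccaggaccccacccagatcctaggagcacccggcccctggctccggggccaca
Itgb7: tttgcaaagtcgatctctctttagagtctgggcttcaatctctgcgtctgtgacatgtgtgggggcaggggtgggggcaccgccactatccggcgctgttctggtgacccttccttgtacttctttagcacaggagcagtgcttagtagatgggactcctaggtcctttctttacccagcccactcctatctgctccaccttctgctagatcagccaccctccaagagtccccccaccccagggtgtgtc

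The motifs were searched on both strands in all 32851 windows of that length. They were the AP-1 site TGANTCA, the hypoxia core ACGTG, the RUNX core TGTGGT and the PU.1-type ETS site AGAGGAAGT. Itga4 held a RUNX core and Itga11 a PU.1-type site, each on the opposite strand, and the windows shown for Lamb3 and Itgb7 held none of the 4. Over the 26 windows of members, AP-1 matched 1 (6.75% of all windows), the hypoxia core 1 (16.6%), RUNX 2 (14.05%) and the PU.1-type site 2 (0.798%). A match describes the letters and not a bound site.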

How the data were processed

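Total RNA of mouse breast tumour tissue was sequenced from SMARTer mRNA libraries, per the labels' protocols. The authors deposited raw whole-number counts per gene symbol, 1 column per library. The submitters' processing notes name the builds GRCm39 and mm39. For aligner, counter and strand nothing was given in the sources used here. Total counts were 105728292 and 60752043.

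Library sizes were scaled by TMM (edgeR 4.0.16, R 4.3.3, over genes with 20 counts or more in all), with factors 0.966 and 1.04. CPM are counts per 1000000 of scaled size. Log2 ratios carry a prior count of 2, while printed folds do not. Intervals are Clopper-Pearson at 95% from the split of a gene's combined count, and for the relation of a pair of chains the exact conditional interval of the odds ratio (scipy 1.17.1). Without molecular identifiers, reads may repeat a molecule. Floors are 3 counts per library.

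Coding lengths are the longest coding sequence per symbol in GENCODE M21, used in place of the planned protein lengths. Reads of untranslated regions and any end bias are not corrected by it. Members, 9 pathway lists, 16 marker lists (with member roles 343 entries, 6 without a symbol) and chain pairs were chosen with earlier results of these data known. 1 member and 1 list gene, counted in the totals, are not reported here by name. Every other member may be named, and from a list the 2 most abundant genes and the 2 with the most extreme ratio at a combined count of at least 100. The calculation was tested on simulated counts that held counting error only and few changed genes. That run checks the code and cannot speak to variation between animals or in tissue make-up. Alternatives were other scalings (DESeq2 1.42.0 size factors among them), prior counts, count minimums, fold limits and thinning.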

Additional observations from a re-analysis of the deposited data

How the results depend on the processing

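No paired analysis was possible because each group had 1 library, and no library could be left out. Of the alternatives, total counts moved every log2 ratio by 0.10, totals without the 10 most abundant genes by 0.10, and setting the epithelial list to 0 by 0.33. The count of 3 genes higher and 3 lower became 5 and 1 with the epithelial list at 0, 5 and 6 at a 1.5-fold limit, and 1 and 0 at a 4-fold limit, where only Itga11 passed. The fold limits change the counts by construction, and the share of all genes called was not counted under any alternative. Lamb3 missed the 2-fold limit under total counts and without the 10 most abundant genes (log2 ratio -0.92 in both), and Itgb3 and Lamb3 missed it with the epithelial list at 0 (-0.87 and -0.70). In that setting the integrin median of -0.23 turned to 0.10 and the laminin median of -0.36 became -0.03, and 7 members changed sign. Itgb8, at 43 and 47 counts, passed 2-fold after thinning, at a log2 ratio of 1.35. Under DESeq2 size factors and upper quartile scaling 3 genes were higher and 3 lower. The prior count does not enter the calls, so prior counts of 0.5 and 5 could not change them. Without division by length the share of Lama5 among the alpha chains was 87.4% and 82.3%. Depth limits Itgad, Itgb8, Lama1 and Lamc3 most.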

Other observations

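Genes whose symbols start like those of integrins but that make no integrin chain went their own ways. Itgbl1, a secreted protein with integrin-like repeats, had 300 and 451 counts and was 2.44-fold higher with acupuncture (2.10 to 2.83). Itgb1bp2, the muscle protein melusin, had 321 and 287 counts, a ratio of 1.45 (1.23 to 1.71). Itgb1bp1, an inhibitor of beta 1 activation, was at 34.2 and 32.5 CPM, a ratio of 0.948 with an interval that held 1 (0.897 to 1.002).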
